A study of Mus musculus with 12 samples.

Results

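Iron uptake, storage and export were described through 10 genes, of 57010 genes in the deposited count table: Trf, Tfrc, Slc11a2, Slc11a1, Slc48a1, Hmox1, Fth1, Ftl1, Slc40a1 and Cp. They were chosen by name for their known roles in iron handling, with earlier results of these data known. Each matched 1 Ensembl identifier, and all 10 passed the filter on low counts that left 15943 genes for testing. The cells were large peritoneal macrophages, which reside in the peritoneum of the mouse, and they were sorted from female mice as F4/80high MHCIIlow cells. The 4 groups held 3 RNA-seq libraries each. WT naive cells came from wild-type mice without injection, and Tim4KO naive cells from mice lacking Tim4, a scavenger receptor encoded by Timd4. WT ID8 and Tim4KO ID8 cells came from mice injected intraperitoneally at 8 weeks of age with ID8ZGO cells, an ID8 mouse ovarian tumour line that expresses ZsGreen and OVA (ovalbumin). They were sorted 24 h later, and only ZsGreen+ macrophages were kept. The age of the naive mice was not given. Since the ZsGreen gate was applied to the challenged groups alone, challenge and uptake of tumour material cannot be told apart in any comparison of ID8 with naive cells.

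Macrophages take in iron in several forms. Transferrin, the protein made from Trf, carries ferric iron to the transferrin receptor (Tfrc), and the complex is internalised; in the endosome the iron is reduced and leaves through the transporter DMT1 (Slc11a2). Iron from engulfed cells arrives largely as heme, which HRG1 (Slc48a1) carries out of the phagolysosome and heme oxygenase 1 (Hmox1) breaks open, while NRAMP1 (Slc11a1) moves metal ions out of the phagosome. Spare iron is stored in ferritin shells built of heavy (Fth1) and light (Ftl1) chains, and iron leaves the cell through ferroportin (Slc40a1), helped by ferroxidases such as ceruloplasmin (Cp). In iron-poor cells, iron regulatory proteins bind hairpins called iron-responsive elements: binding in a 5′ UTR blocks translation, and binding in a 3′ UTR protects the transcript from decay.

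The hairpins are shown because, in a gene that carries one, its place tells whether transcript level or translation is known to follow cell iron. Transcripts of GENCODE vM21 on GRCm38 were searched on the sense strand for a bulged C, 5 bases, the loop CAGTGN and 5 bases that pair with the first 5, with G-T pairs allowed. In the lines that follow, in DNA letters 5′ to 3′, capitals mark the bulged C and the loop.
Fth1, 5′ UTR, chr19:9982732-9982760, plus strand: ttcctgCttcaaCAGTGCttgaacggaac
Ftl1, 5′ UTR, chr7:45459779-45459807, minus strand: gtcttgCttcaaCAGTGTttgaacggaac
Slc40a1, 5′ UTR, chr1:45925465-45925493, minus strand: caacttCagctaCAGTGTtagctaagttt
Tfrc, 3′ UTR, chr16:32631219-32631247, plus strand: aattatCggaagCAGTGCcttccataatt
Tfrc, 3′ UTR, chr16:32631598-32631626, plus strand: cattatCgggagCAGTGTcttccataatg
Tfrc, 3′ UTR, chr16:32631663-32631691, plus strand: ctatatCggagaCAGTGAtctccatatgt
Tfrc, 3′ UTR, chr16:32631710-32631738, plus strand: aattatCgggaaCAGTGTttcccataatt
The pattern stood in a 5′ UTR of 31 of 21901 genes searched (0.142%) and in a 3′ UTR of 129 of them (0.589%). Both ferritin genes and the exporter carried it in the 5′ UTR, and Tfrc carried 4 copies in its 3′ UTR. No match was found in the other 6 genes, which says only that these letters are not in the transcripts searched. Hairpins with a mismatch among the 5 pairs or with a further bulge were not searched for, so these genes may still carry such elements.

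Library totals ran from 7358559 to 23170244 counts, and levels are given as CPM, counts scaled to the library total with edgeR's TMM factors. The floor of detection was set at 3 counts, which is 0.129 to 0.408 CPM. Timd4, the targeted gene, was at 1315 ± 159 (naive) and 1150 ± 286 CPM (ID8) in WT cells, against 7.41 ± 0.262 and 1.72 ± 0.291 CPM in the Tim4KO groups (SD, n = 3). All 12 markers of large peritoneal macrophages were detected in every group, Adgre1 and Gata6 at group means of 3157 to 4747 CPM and 136 to 179 CPM. The 12 markers summed to 52998 to 60834 CPM in naive and 24293 to 29216 CPM in ID8 libraries. In WT cells Lyz2, the largest of them, was at 45845 ± 1670 CPM (naive) and 12773 ± 2136 CPM (ID8), Prg4 at 3651 ± 740 and 2405 ± 360 CPM, and Adgre1 at 3157 ± 611 and 4747 ± 1345 CPM (SD, n = 3). The part of this shift in the responses of the iron genes was not tested. Red cell markers, which bear on heme and iron, summed to 1.38 to 11.5 CPM over 10 genes, none of which was at 0 in all libraries. One library, WT ID8 3, stood apart: 12 proliferation genes summed to 2310 CPM there and to 124 to 316 CPM in the other 11 libraries, and 1946 olfactory and vomeronasal receptor genes summed to 6.25 CPM there and to 41.9 to 836 CPM elsewhere. It had the lowest Tfrc, Slc11a2 and Hmox1 of the WT ID8 libraries, so results that rest on it are given with and without it. Nothing in the labels says whether the 3 libraries of a group came from separate mice, so p-values measure the spread between these libraries only. In bulk RNA, fewer cells that express a gene and less of its RNA per cell cannot be told apart.

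Per length of exon, the 10 genes spanned over 4 orders of magnitude. In WT naive cells Trf reached 2483 ± 273 CPM per kilobase (SD, n = 3) and ranked 15 among 21880 protein-coding genes. Ftl1 followed at 749 ± 15.9, Fth1 at 555 ± 48.2, Slc11a1 at 85.1 ± 3.64, Hmox1 at 63.0 ± 10.1 and Slc48a1 at 34.2 ± 0.949 CPM per kilobase. Cp stood at 9.26 ± 3.23, Slc11a2 at 1.60 ± 0.117, Tfrc at 1.18 ± 0.149 and Slc40a1 at 0.141 ± 0.0197 CPM per kilobase. No neighbours in this WT naive order overlapped between libraries at these lengths. With the longest transcript as length, Fth1 (863, 914 and 1022) and Ftl1 (1012, 1044 and 1055 CPM per kilobase) did overlap. These resident macrophages thus held far more transcript for the iron carrier and for ferritin than for the carrier's receptor or the exporter. After the challenge, Tfrc moved up from rank 9241 to 2958 in WT cells and from 8609 to 3125 in Tim4KO cells, while Trf moved from rank 15 to 47 and from 11 to 36.

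**Figure D1:**
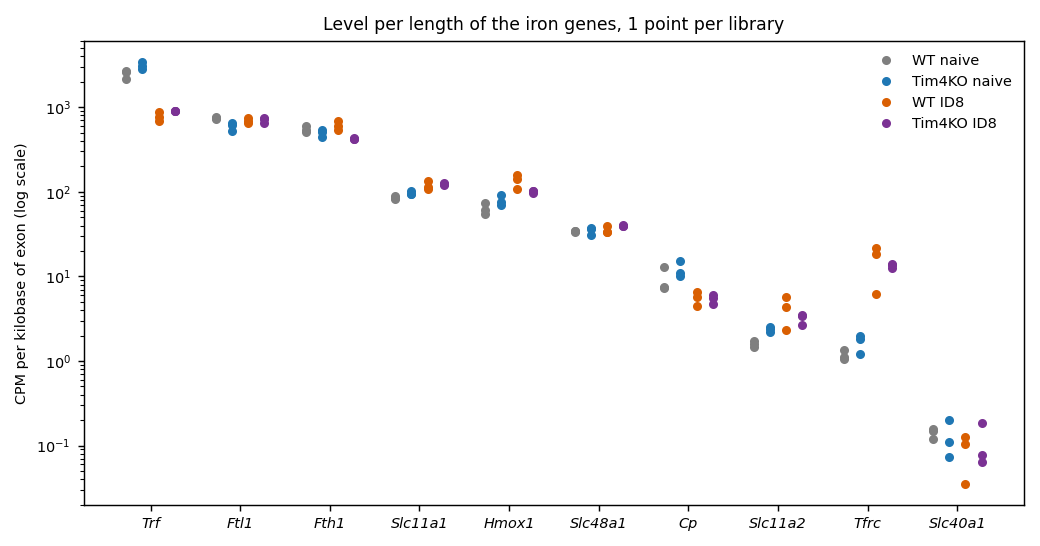
Level per length (CPM per kilobase of exon, log axis) of the 10 iron genes, with 1 point per library and colours for the 4 groups. Trf lies highest in naive cells, Slc40a1 lies lowest, and Tfrc shows the widest gap between naive and ID8 libraries.

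The question put to ID8 against naive cells, within each genotype, was which transcripts differ in macrophages that had taken up tumour material. In WT cells 6 of the 10 genes were called by edgeR's quasi-likelihood test at a Benjamini-Hochberg adjusted p under 0.05, with 4 higher (Tfrc, Slc11a2, Hmox1 and Slc11a1) and 2 lower (Trf and Cp). Over all tested genes 31.8% were called, 19.5% higher and 12.3% lower; of these calls 61.3% were higher, a share that upper-quartile scaling lowered to 33.9%. In Tim4KO cells 4 of the 10 were called, Tfrc and Slc11a1 higher and Trf and Cp lower, against 16.6% of all tested genes (11.5% higher and 5.06% lower, so that 69.5% of calls were higher, or 48.7% under upper-quartile scaling). The groups did not overlap for 6 of the 10 genes in WT, where this held for 44.4% of all tested genes, and for 8 of the 10 in Tim4KO, where it held for 41.9%. The median log2 change of the 10 genes was 0.10 in WT and 0.22 in Tim4KO, beside -0.04 and -0.05 over all tested genes. Since the 10 genes were chosen with earlier results of these data known, setting them beside all genes is no test of the set. Ligand and receptor of transferrin uptake moved in opposite directions in both genotypes, while neither ferritin chain nor the exporter was called in either.

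**Figure D2:**
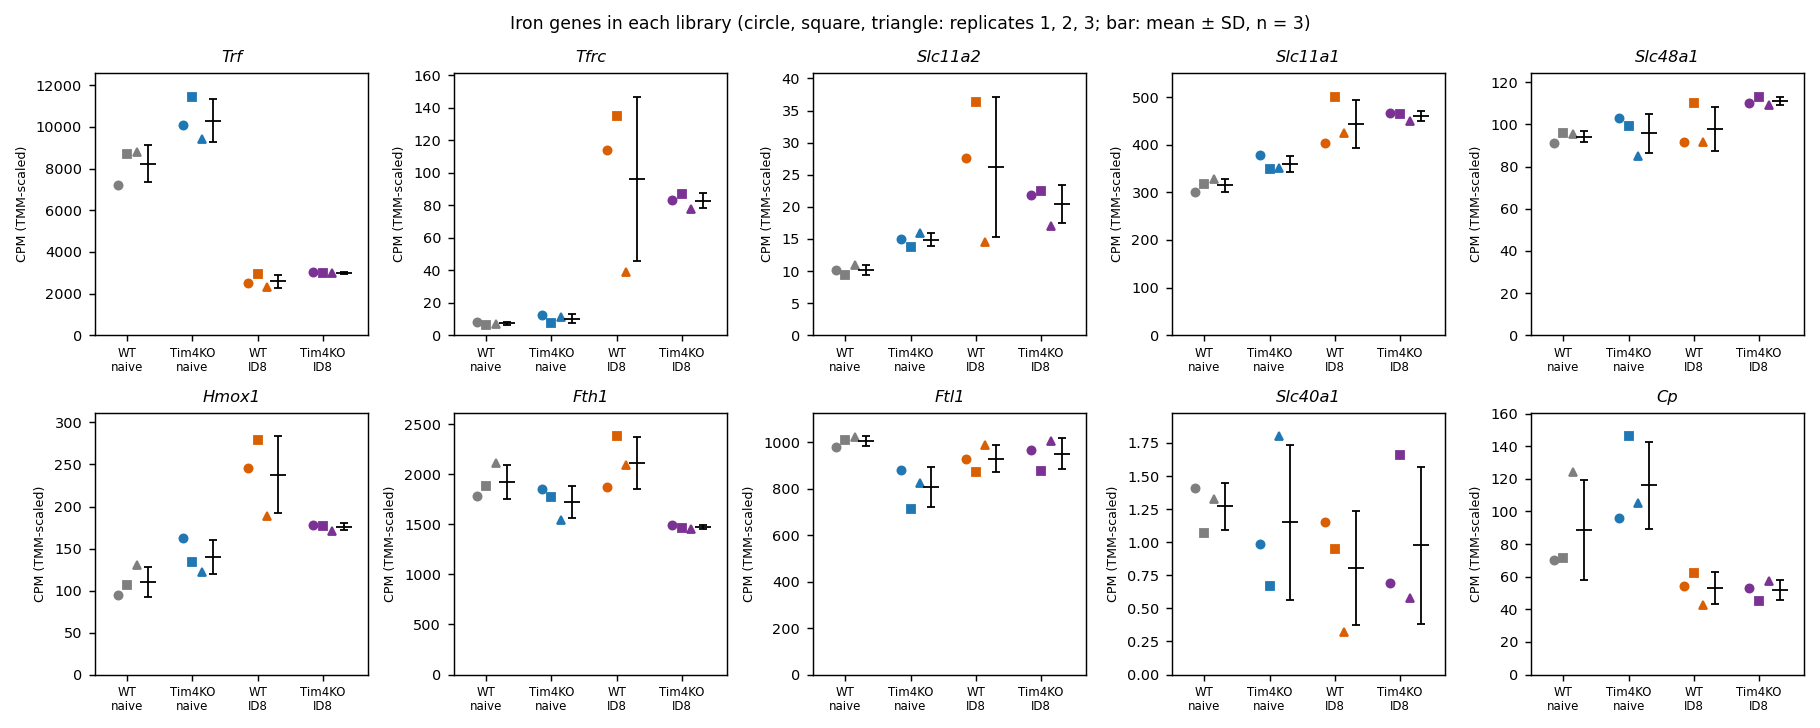
CPM (linear axes from 0) of each of the 10 iron genes in every library, with the mean and SD of each group of 3 beside its points. Tfrc is higher and Trf lower in all 6 ID8 libraries than in any of the 6 naive libraries, and WT ID8 replicate 3 (triangle) is the lowest of its group for Tfrc, Slc11a2 and Hmox1.

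Trf (ENSMUSG00000032554, chr9:103204001-103230444, minus strand, GRCm38) encodes transferrin, the plasma iron carrier made mainly by liver. Its level was 7200, 8717 and 8816 CPM in the WT naive libraries and 10085, 11436 and 9400 CPM in Tim4KO naive. It was 2518, 2923 and 2315 CPM in WT ID8 and 3036, 2969 and 2966 CPM in Tim4KO ID8. All ID8 libraries lay far below all naive libraries, and within each condition every Tim4KO library lay above every WT library. Trf fell 3.19-fold in WT (log2 change -1.67, SE 0.14, edgeR adjusted p = 2.1e-06) and 3.45-fold in Tim4KO (log2 change -1.79, SE 0.14, edgeR adjusted p = 2.79e-06). The sum of 6 hepatocyte genes, Alb among them, was 0 to 1.84 CPM per library. Trf shares 2108 exonic bases on the same strand with Gm20425, a gene not analysed here.

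Tfrc (ENSMUSG00000022797, chr16:32608920-32632794, plus strand, GRCm38), the receptor whose 3′ UTR hairpins are printed above, was at 8.34, 6.61 and 6.92 CPM in WT naive and 12.2, 7.46 and 11.3 CPM in Tim4KO naive libraries. It was at 114, 135 and 38.8 CPM in WT ID8 and 83.4, 87.0 and 77.8 CPM in Tim4KO ID8 libraries. Even the lowest ID8 library, WT ID8 3, stood above the highest naive one. Tfrc rose 13.2-fold in WT (log2 change 3.72, SE 0.41, edgeR adjusted p = 0.000131) and 7.88-fold in Tim4KO (log2 change 2.98, SE 0.40, edgeR adjusted p = 0.000833), the largest change among the 10 genes in both genotypes. Without WT ID8 3 the WT log2 change was 4.13 (edgeR adjusted p = 6.32e-15). In that library the proliferation genes were highest and Tfrc was the lowest of the ID8 libraries; a part of proliferation in the Tfrc result was not tested.

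Slc11a2 (ENSMUSG00000023030, chr15:100387898-100425072, minus strand, GRCm38) encodes DMT1, the endosomal iron transporter. It was low throughout, at 10.2, 9.42 and 10.9 CPM in WT naive and 15.0, 13.8 and 16 CPM in Tim4KO naive libraries. WT ID8 libraries had 27.6, 36.3 and 14.6 CPM, and Tim4KO ID8 libraries 21.8, 22.5 and 17 CPM. Each ID8 group lay wholly above its own naive group, but WT ID8 3 lay inside the range of the Tim4KO naive libraries. Slc11a2 rose 2.56-fold in WT (log2 change 1.36, SE 0.25, edgeR adjusted p = 0.00121). In Tim4KO the log2 change was 0.44 (SE 0.25, edgeR adjusted p = 0.25) and was not called, except in the fit without WT ID8 3 (0.46, edgeR adjusted p = 0.0441). An opposite-strand gene, Gm5475, shares 402 exonic bases with it and had 62 counts in all 12 libraries together.

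Slc11a1 (ENSMUSG00000026177, chr1:74375195-74386062, plus strand, GRCm38) encodes NRAMP1, the phagosomal metal transporter known for resistance to intracellular bacteria. Its libraries read 301, 317 and 328 CPM in WT naive, 378, 348 and 352 CPM in Tim4KO naive, 404, 500 and 425 CPM in WT ID8, and 467, 465 and 449 CPM in Tim4KO ID8. The ID8 libraries all lay above the naive ones, by a small margin. The log2 change was 0.49 in WT (SE 0.11, edgeR adjusted p = 0.00497) and 0.36 in Tim4KO (SE 0.11, edgeR adjusted p = 0.0431). The Tim4KO call was weak: it held in 3 of the 12 fits that left out 1 library, and in 3 of 8 other settings. In WT, upper-quartile scaling gave 0.24 (edgeR adjusted p = 0.0555) and a fit to the WT groups alone 0.39 (edgeR adjusted p = 0.0518).

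Slc48a1 (ENSMUSG00000081534, chr15:97778520-97792692, plus strand, GRCm38) encodes HRG1, which brings heme from the phagolysosome into the cytosol. Group means lay close together, at 94.1 ± 2.61 and 95.8 ± 9.33 CPM in WT and Tim4KO naive cells and at 97.9 ± 10.6 and 111 ± 1.99 CPM in WT and Tim4KO ID8 cells (SD, n = 3). The 3 Tim4KO ID8 libraries, at 110, 113 and 109 CPM, were above all Tim4KO naive libraries (103, 99.5 and 85.2 CPM). Neither response was called: the log2 change was 0.06 in WT (SE 0.12, edgeR adjusted p = 0.724) and 0.21 in Tim4KO (SE 0.12, edgeR adjusted p = 0.255). Slc48a1 shares 29 exonic bases with Hdac7 on the opposite strand, and how strand was handled in counting is not given in the sources used here.

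Hmox1 (ENSMUSG00000005413, chr8:75093621-75100589, plus strand, GRCm38) encodes heme oxygenase 1, which opens the heme ring and frees its iron. WT naive libraries had 95, 106 and 130 CPM and Tim4KO naive libraries 162, 134 and 122 CPM. WT ID8 libraries had 246, 279 and 189 CPM and Tim4KO ID8 libraries 178, 177 and 171 CPM. Every ID8 library was above every naive one, and every WT ID8 library was above every Tim4KO ID8 library. Hmox1 rose 2.15-fold in WT (log2 change 1.11, SE 0.16, edgeR adjusted p = 0.000191). In Tim4KO its log2 change was 0.33 (SE 0.16, edgeR adjusted p = 0.181) and was not called. The 2 transcripts of heme handling thus differed in WT: the enzyme was called higher and the heme transporter was not called.

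Fth1 (ENSMUSG00000024661, chr19:9980598-9985098, plus strand, GRCm38) encodes the ferritin heavy chain, the subunit with ferroxidase activity. It read 1780, 1886 and 2108 CPM in WT naive, 1852, 1777 and 1540 CPM in Tim4KO naive, 1869, 2379 and 2088 CPM in WT ID8, and 1497, 1461 and 1458 CPM in Tim4KO ID8 libraries. Naive and ID8 libraries overlapped in WT, and the Tim4KO ID8 libraries were the lowest of all 12. The response was 0.13 on the log2 scale in WT (SE 0.13, edgeR adjusted p = 0.423) and -0.23 in Tim4KO (SE 0.13, edgeR adjusted p = 0.257). Upper-quartile scaling turned the WT value to -0.11 and called the Tim4KO value (-0.34, edgeR adjusted p = 0.0373), as did a filter at a mean count of 50 (-0.04 in WT and -0.33 in Tim4KO, the latter with edgeR adjusted p = 0.0321).

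Ftl1 (ENSMUSG00000050708, chr7:45457944-45459884, minus strand, GRCm38) encodes the ferritin light chain, which favours the build-up of the iron core. It varied least among the iron genes after Slc48a1, with 980, 1010 and 1021 CPM in WT naive, 881, 712 and 826 CPM in Tim4KO naive, 926, 871 and 987 CPM in WT ID8, and 968, 877 and 1007 CPM in Tim4KO ID8 libraries. Naive and ID8 ranges overlapped in both genotypes. Its log2 response was -0.11 in WT (SE 0.12, edgeR adjusted p = 0.466) and 0.24 in Tim4KO (SE 0.12, edgeR adjusted p = 0.197). Upper-quartile scaling called the WT value (-0.35, edgeR adjusted p = 0.0299).

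Ftl1 levels are uncertain because 4 near-identical copies, Ftl1-ps1, Gm15590, Ftl2-ps and Ftl1-ps2, share 675, 318, 273 and 125 stretches of 50 bases with it, and how reads that match several places were treated is not given in the sources used here. Counted in rows of their own, the copies together came to 8.03% to 24.1% of the size of the Ftl1 count in 10 libraries, but to 42.2% in WT naive 3 and 101% in Tim4KO ID8 2. In Tim4KO ID8 2 the excess was Gm15590, with 9263 counts (855 CPM) against 4.02 to 8.53 CPM in the other 11 libraries. In WT naive 3 it was Ftl2-ps, with 5907 counts (413 CPM) against 20.8 to 191 CPM in the others, the lowest of them Tim4KO ID8 2. Ftl1 itself did not stand apart in either library. With the copies summed into Ftl1, an alternative chosen after seeing the data, the Tim4KO response was 0.60 on the log2 scale and was called (edgeR adjusted p = 0.0275), the only setting to do so. The summed level was then 1160, 1762 and 1118 CPM in Tim4KO ID8 cells, so that the mean of this group was raised by the library with the Gm15590 excess.

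**Figure D3:**
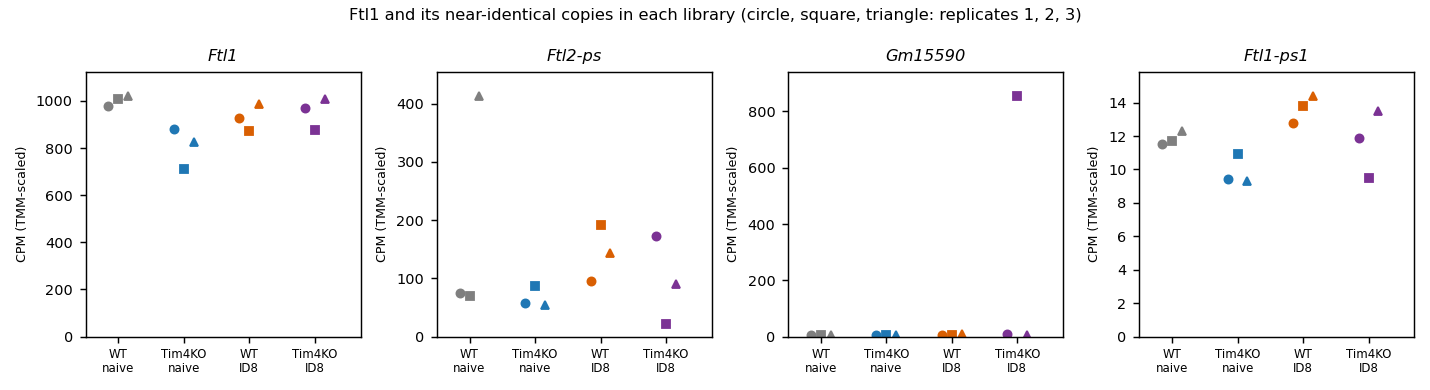
CPM (linear axes from 0) of Ftl1 and of 3 of its near-identical copies in every library, 1 point per library. Gm15590 reaches 855 CPM in Tim4KO ID8 2 alone and Ftl2-ps 413 CPM in WT naive 3 alone, while Ftl1 lies between 712 and 1021 CPM.

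The ratio of heavy to light ferritin transcript, per kilobase of exon, was 0.702, 0.721 and 0.797 in WT naive and 0.812, 0.964 and 0.720 in Tim4KO naive libraries. After the challenge it was 0.780, 1.05 and 0.817 in WT, and 0.598, 0.644 and 0.559 in Tim4KO. The Tim4KO ID8 libraries had the 3 lowest ratios of the 12, and the other 3 groups overlapped. Its absolute size depends on the lengths used. With the longest transcript of each gene the group means were 0.899 and 0.729 in WT naive and Tim4KO ID8 cells. They were 1.01 in Tim4KO naive cells (libraries at 0.986, 1.17 and 0.875) and 1.07 in WT ID8 cells (0.948, 1.28 and 0.993). In the latter pair the means passed 1, while most libraries still had more of the light chain.

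Slc40a1 (ENSMUSG00000025993, chr1:45908068-45926523, minus strand, GRCm38) encodes ferroportin, the known iron exporter of vertebrate cells. Its counts were only 13, 16 and 19 in the WT and 12, 5 and 32 in the Tim4KO naive libraries. In ID8 libraries they were 10, 11 and 7 (WT) and 9, 18 and 10 (Tim4KO). Group means were 1.27 ± 0.177, 1.15 ± 0.586, 0.805 ± 0.433 and 0.976 ± 0.596 CPM in the same order (SD, n = 3), and all groups overlapped. The log2 response was -0.71 in WT (SE 0.62, edgeR adjusted p = 0.375) and -0.31 in Tim4KO (SE 0.60, edgeR adjusted p = 0.767). These standard errors were larger than the log2 changes of Slc11a1 (0.49 and 0.36), and the parts of low counts and of spread between libraries in them were not separated. The 1946 olfactory and vomeronasal receptor genes summed to 267 to 836 CPM in naive and 6.25 to 362 CPM in ID8 libraries. Whether such low-level reads make up part of the Slc40a1 counts was not tested.

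Cp (ENSMUSG00000003617, chr3:19957054-20009145, plus strand, GRCm38) encodes ceruloplasmin, the copper ferroxidase that loads iron onto transferrin. WT naive libraries had 70.3, 71.2 and 124 CPM and Tim4KO naive libraries 96.0, 146 and 105 CPM. WT ID8 libraries had 54.1, 62.0 and 42.9 CPM and Tim4KO ID8 libraries 52.8, 44.9 and 57.5 CPM. All 6 ID8 libraries lay below all 6 naive ones, and the naive libraries were the more scattered. Cp fell 2.23-fold in Tim4KO (log2 change -1.16, SE 0.23, edgeR adjusted p = 0.00398) and 1.68-fold in WT (log2 change -0.75, SE 0.23, edgeR adjusted p = 0.024). The WT call was lost without WT naive 3 (-0.39, edgeR adjusted p = 0.16), without WT ID8 1 (-0.69, 0.0571) and without WT ID8 3 (-0.59, 0.0969). Cp shares 108 exonic bases with Hps3 on the opposite strand, and Hps3 had 9369 counts in all 12 libraries together, against 11932 for Cp. How strand was handled in counting is not given in the sources used here.

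**Figure D4:**
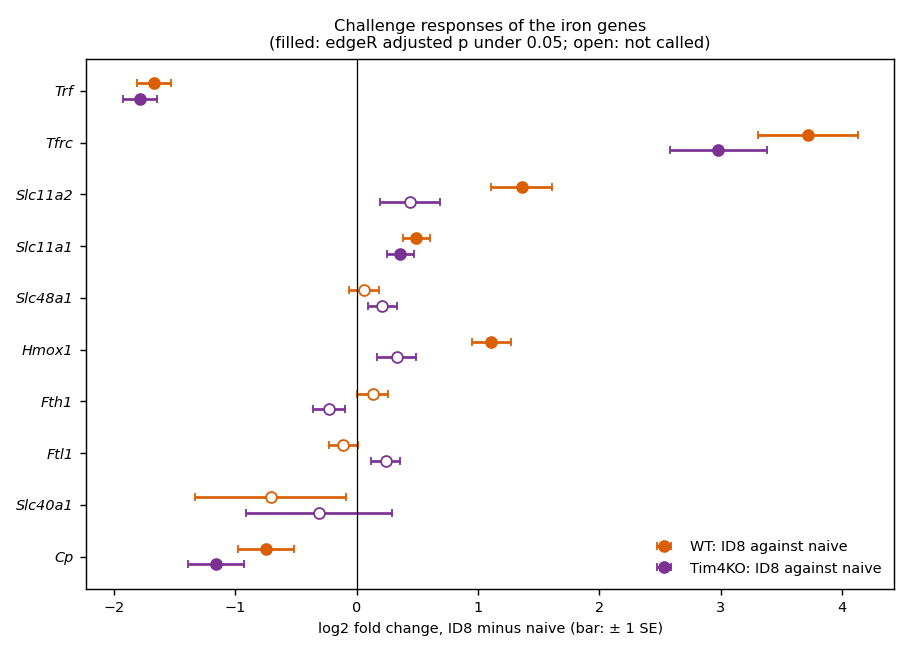
Log2 fold change of ID8 against naive cells for the 10 iron genes, in WT (orange) and Tim4KO (purple), with bars of 1 SE either side and filled points for genes called by edgeR. Tfrc lies farthest to the right in both genotypes and Trf farthest to the left, while both ferritin genes, Slc48a1 and Slc40a1 have open points.

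The genotype comparisons asked whether lack of Tim4 altered these transcripts. In naive cells edgeR called 0 of the 10 genes, beside 0.0439% of all tested genes (7 genes, Timd4 among them), and DESeq2 and limma voom also called 0. At an unadjusted p under 0.05 there were 3 of 10 (Trf, Slc11a2 and Ftl1), beside 6.27% of all genes. Groups did not overlap for 4 of the 10, beside 14.2% of all genes: Trf, Slc11a2 and Slc11a1 were higher in every Tim4KO naive library and Ftl1 was lower. Their log2 differences, Tim4KO minus WT, were 0.32 for Trf (SE 0.14, edgeR adjusted p = 0.757), 0.56 for Slc11a2 (SE 0.25, edgeR adjusted p = 0.778), 0.19 for Slc11a1 (SE 0.11, edgeR adjusted p = 0.826) and -0.32 for Ftl1 (SE 0.12, edgeR adjusted p = 0.722). None of these differences passed the correction over all genes.

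In ID8 cells edgeR again called 0 of the 10 genes between genotypes, beside 0.0565% of all tested genes (9 genes). At an unadjusted p under 0.05 there were 2 of 10, Fth1 and Hmox1, beside 12.1% of all genes, DESeq2 called Fth1 and limma voom called 0. The groups did not overlap for Fth1 and Hmox1, both lower in Tim4KO ID8, and for Trf, higher there, which is 3 of 10 beside 15.6% of all genes. Fth1 was 1.43-fold lower in Tim4KO ID8 (log2 difference -0.52, SE 0.13, edgeR adjusted p = 0.167), and DESeq2 gave -0.54 (DESeq2 adjusted p = 0.00226). Hmox1 was 1.35-fold lower (log2 difference -0.44, SE 0.16, edgeR adjusted p = 0.306), and Trf had a log2 difference of 0.21 (SE 0.14, edgeR adjusted p = 0.54). The tests of the genotype difference averaged over naive and ID8 cells called 0 of the 10 genes by edgeR, beside 0.289% of all genes. In that average, 2 of the 10 genes had an unadjusted p under 0.05, beside 11% of all genes: Fth1 (log2 difference -0.34, SE 0.09, edgeR adjusted p = 0.18) and Trf (0.27, SE 0.10, edgeR adjusted p = 0.329), limma voom called 0, and DESeq2 called Fth1 (-0.36, DESeq2 adjusted p = 0.00432).

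Several genotype results depended on the library that stood apart. It was the lowest WT ID8 library for Tfrc, Slc11a2 and Hmox1, so leaving it out raises their WT ID8 mean. Calls of these genes without it are therefore no independent support for a genotype difference. Without WT ID8 3, edgeR called 4 of the 10 genes lower in Tim4KO ID8 than in WT ID8 cells. Beside them, 997 of all 17374 tested genes were called, 390 higher and 607 lower. They were Tfrc (log2 difference -0.59, edgeR adjusted p = 0.0271), Slc11a2 (-0.66, 0.0231), Hmox1 (-0.58, 0.0314) and Fth1 (-0.53, 0.0438). With the library the same differences were -0.21 for Tfrc, -0.35 for Slc11a2, -0.44 for Hmox1 and -0.52 for Fth1, none called. The Fth1 difference was thus about as large with the library as without it, whereas that of Tfrc was smaller with it. With that library left out, WT ID8 is 2 libraries and its spread is judged from the other groups.

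Whether the challenge response differed between genotypes was tested by the interaction, the Tim4KO response minus the WT response. EdgeR called 0 of the 10 genes and 0 of 15943 genes, 2 of the 10 and 7.44% of all genes had an unadjusted p under 0.05, and DESeq2 called 11 genes and limma voom none, with 0 of the 10 among them. The 2 genes were Hmox1, at -0.78 on the log2 scale (SE 0.23, edgeR adjusted p = 0.668), and Slc11a2, at -0.91 (SE 0.35, edgeR adjusted p = 0.668). Tfrc stood at -0.74 (SE 0.54, edgeR adjusted p = 0.736), Fth1 at -0.36 (SE 0.18, edgeR adjusted p = 0.672), Ftl1 at 0.35 (SE 0.17, edgeR adjusted p = 0.668) and Trf at -0.11 (SE 0.19, edgeR adjusted p = 0.883). That only the WT response was called for Hmox1 and Slc11a2 is therefore not a shown difference between the genotypes. Without WT ID8 3 the interaction called 368 of 17374 tested genes (138 higher and 230 lower) and 3 of the 10, all smaller responses in Tim4KO. They were Tfrc (-1.14, edgeR adjusted p = 0.01), Slc11a2 (-1.23, 0.00634) and Hmox1 (-0.92, 0.0215). WT ID8 3 was the lowest WT ID8 library for each of them, so leaving it out raises their WT response.

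Other genes of iron metabolism were taken from 4 lists, also chosen with earlier results of these data known. The lists held 58 genes in all, of which 47 genes were tested. In WT cells 18 rose and 2 fell after the challenge, with a median log2 change of 0.26, and in Tim4KO cells 16 rose and 3 fell, with a median of 0.24; the share of all genes called is given above. Part of the tilt towards higher calls followed the scaling: under upper-quartile scaling, which moved the median of all genes from -0.04 to -0.28 in WT and from -0.05 to -0.17 in Tim4KO, 10 of the 47 rose and 6 fell in WT, and 12 rose and 3 fell in Tim4KO. Over all 15943 tested genes this scaling called 1799 higher and 3508 lower in WT, and 1322 higher and 1394 lower in Tim4KO. All listed genes called under TMM scaling kept their direction under both other scalings. A fit to the WT groups alone called 11 of the 44 listed genes it tested in WT, beside 3102 of 14241 genes. Without Tim4KO naive 2 or 3, or any 1 of the Tim4KO ID8 libraries, 10 to 12 of 47 to 52 were called in Tim4KO. Beside them, 1222 to 1666 of 16826 to 17391 genes were called in these fits.

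Among the regulators, 2 of 8 tested rose in WT, where 19.5% of all tested genes were called higher and 12.3% lower. In Tim4KO 2 rose and 1 fell, beside 11.5% and 5.06% of all tested genes. Aco1, iron regulatory protein 1, had log2 changes of 0.39 in WT (edgeR adjusted p = 0.0193) and 0.36 in Tim4KO (edgeR adjusted p = 0.0475). Both calls were lost under upper-quartile scaling and at a mean count of 50, the WT call also in the fit to the WT groups alone and without WT naive 1 or WT ID8 2 and the Tim4KO call in 11 of the 12 fits that left out 1 library. Pcbp1, a chaperone that delivers iron to ferritin, rose from 195 ± 12.6 to 301 ± 36.7 CPM in WT and from 200 ± 40.9 to 301 ± 18.5 CPM in Tim4KO (SD, n = 3), the latter call lost without Tim4KO naive 2 (log2 change 0.46, edgeR adjusted p = 0.0874) or Tim4KO ID8 1 (0.58, 0.0565). Fbxl5, the iron-sensing ubiquitin ligase subunit that removes iron regulatory protein 2, fell in Tim4KO from 145 ± 4.33 to 94.9 ± 3.93 CPM (log2 change -0.61, edgeR adjusted p = 0.0217), a call lost without any 1 of the 6 Tim4KO libraries (highest edgeR adjusted p = 0.106).

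Of the other iron transporters, 4 of 11 tested rose and 1 fell in WT, beside 19.5% and 12.3% of all tested genes. In Tim4KO 3 rose and none fell, beside 11.5% and 5.06%. Steap3, the endosomal ferrireductase that prepares transferrin iron for DMT1, rose in both genotypes alongside Tfrc: it read 23.5, 27.6 and 28.4 CPM in WT naive and 61.5, 63.8 and 67.9 CPM in WT ID8 libraries. In Tim4KO it read 36.5, 31.7 and 37.1 CPM before and 59.9, 56.7 and 60.6 CPM after the challenge. Its log2 change was 1.28 in WT (SE 0.12, edgeR adjusted p = 4.7e-06) and 0.75 in Tim4KO (SE 0.12, edgeR adjusted p = 0.000698), and WT ID8 3 was not low for it. Slc39a14, the transporter ZIP14 for iron outside transferrin, rose in WT (log2 change 1.28, edgeR adjusted p = 0.0122) from 11.8, 13.0 and 9.43 to 27.5, 43.2 and 12.8 CPM. WT ID8 3 lay inside the naive range for it; the log2 change was 1.67 without that library (edgeR adjusted p = 3.69e-07), and the call was lost without WT naive 3 (1.19, 0.0545) and in the fit to the WT groups alone (1.17, 0.0622). Cybrd1, a ferrireductase, was called lower in WT from few reads, with 4, 5 and 11 counts in WT naive and 1, 0 and 0 in WT ID8 libraries, too few for a fold. Tim4KO libraries had 12, 9 and 7 counts (naive) and 1, 6 and 4 counts (ID8). It passed the filter on low counts through naive libraries alone, which favours a lower level in ID8, so the call is no support for a fall. The call was lost without WT naive 3, WT ID8 2 or WT ID8 3 (edgeR adjusted p of 0.0915 to 0.0997).

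Lcn2, which encodes lipocalin 2, a binder of iron-loaded siderophores, had the largest change of these lists. It read 1.52, 2.94 and 2.44 CPM in WT naive and 48.2, 116 and 87.5 CPM in WT ID8 libraries, and 1.80, 1.73 and 1.69 CPM in Tim4KO naive and 28.4, 23.5 and 25.0 CPM in Tim4KO ID8 libraries. The log2 change was 5.15 in WT (SE 0.31, edgeR adjusted p = 3.57e-07) and 3.88 in Tim4KO (SE 0.32, edgeR adjusted p = 6.89e-06). Of the 47 genes it alone was called between genotypes in ID8 cells (log2 difference -1.71, edgeR adjusted p = 0.0203), a call lost without WT naive 3, WT ID8 2 or any 1 of the Tim4KO ID8 libraries, each of which left 0 of these genes called. Neutrophils also make lipocalin 2, and 10 neutrophil markers summed to 7.33 to 11 CPM in naive and 12.2 to 33.8 CPM in ID8 libraries, none of them at 0 in all. Their part in the Lcn2 result was not tested.

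Of the heme and hemoglobin genes, 5 of 14 tested rose and 1 fell in WT, beside 19.5% and 12.3% of all tested genes. In Tim4KO 5 rose and 2 fell, beside 11.5% and 5.06%. Cd163, the hemoglobin scavenger receptor of macrophages, fell from 79.6, 53.3 and 65.0 to 19.9, 16.1 and 11.9 CPM in WT (log2 change -2.06, SE 0.30, edgeR adjusted p = 0.000434) and from 46.1, 63.1 and 96.2 to 39.4, 22.1 and 33.4 CPM in Tim4KO (log2 change -1.11, SE 0.29, edgeR adjusted p = 0.0208). The Tim4KO call was lost without Tim4KO naive 2 or 3 or Tim4KO ID8 2 or 3 (edgeR adjusted p of 0.062 to 0.0926). Lrp1, a receptor for the heme-hemopexin complex among many ligands, rose from 515 ± 85.0 to 897 ± 223 CPM in WT and from 490 ± 135 to 1126 ± 227 CPM in Tim4KO; its WT call was lost under upper-quartile scaling (log2 change 0.57, edgeR adjusted p = 0.0804), at a mean count of 50 (0.64, 0.0576) and without WT naive 1 (0.68, 0.0709). Blvra, the biliverdin reductase that acts after heme oxygenase, had log2 changes of 0.46 in WT and 0.49 in Tim4KO (edgeR adjusted p of 0.0159 and 0.0182), and the WT call was lost under upper-quartile scaling, at a mean count of 50 and in the fit to the WT groups alone. Its calls were also lost without WT naive 3 or WT ID8 3 in WT, and without Tim4KO naive 2 or 3 or Tim4KO ID8 1 or 2 in Tim4KO (edgeR adjusted p of 0.0502 to 0.0942). Red cell markers summed to 3.27 to 11.5 CPM in the naive and 1.38 to 3.56 CPM in the ID8 libraries, and their part in the Hmox1 result was not tested.

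Of the mitochondrial iron genes, 7 of 14 tested rose in WT and 6 rose in Tim4KO, and none fell in either. Over all tested genes, 19.5% were called higher and 12.3% lower in WT, and 11.5% and 5.06% in Tim4KO. Alas1, the first and rate-limiting enzyme of heme synthesis outside red cells, had log2 changes of 0.51 in WT (edgeR adjusted p = 0.00751) and 0.64 in Tim4KO (edgeR adjusted p = 0.00378). Its WT call was lost under upper-quartile scaling (edgeR adjusted p = 0.123), at a mean count of 50 (0.0513) and in the fit to the WT groups alone (0.0531). Cisd1 and Cisd2, which encode iron-sulfur proteins of the outer mitochondrial membrane and the endoplasmic reticulum, changed by 0.67 and 0.64 in WT and by 0.66 and 0.53 in Tim4KO, where the Cisd2 call was lost without Tim4KO naive 3 (0.46, edgeR adjusted p = 0.0698) or Tim4KO ID8 1 (0.51, 0.0551).

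**Figure D5:**
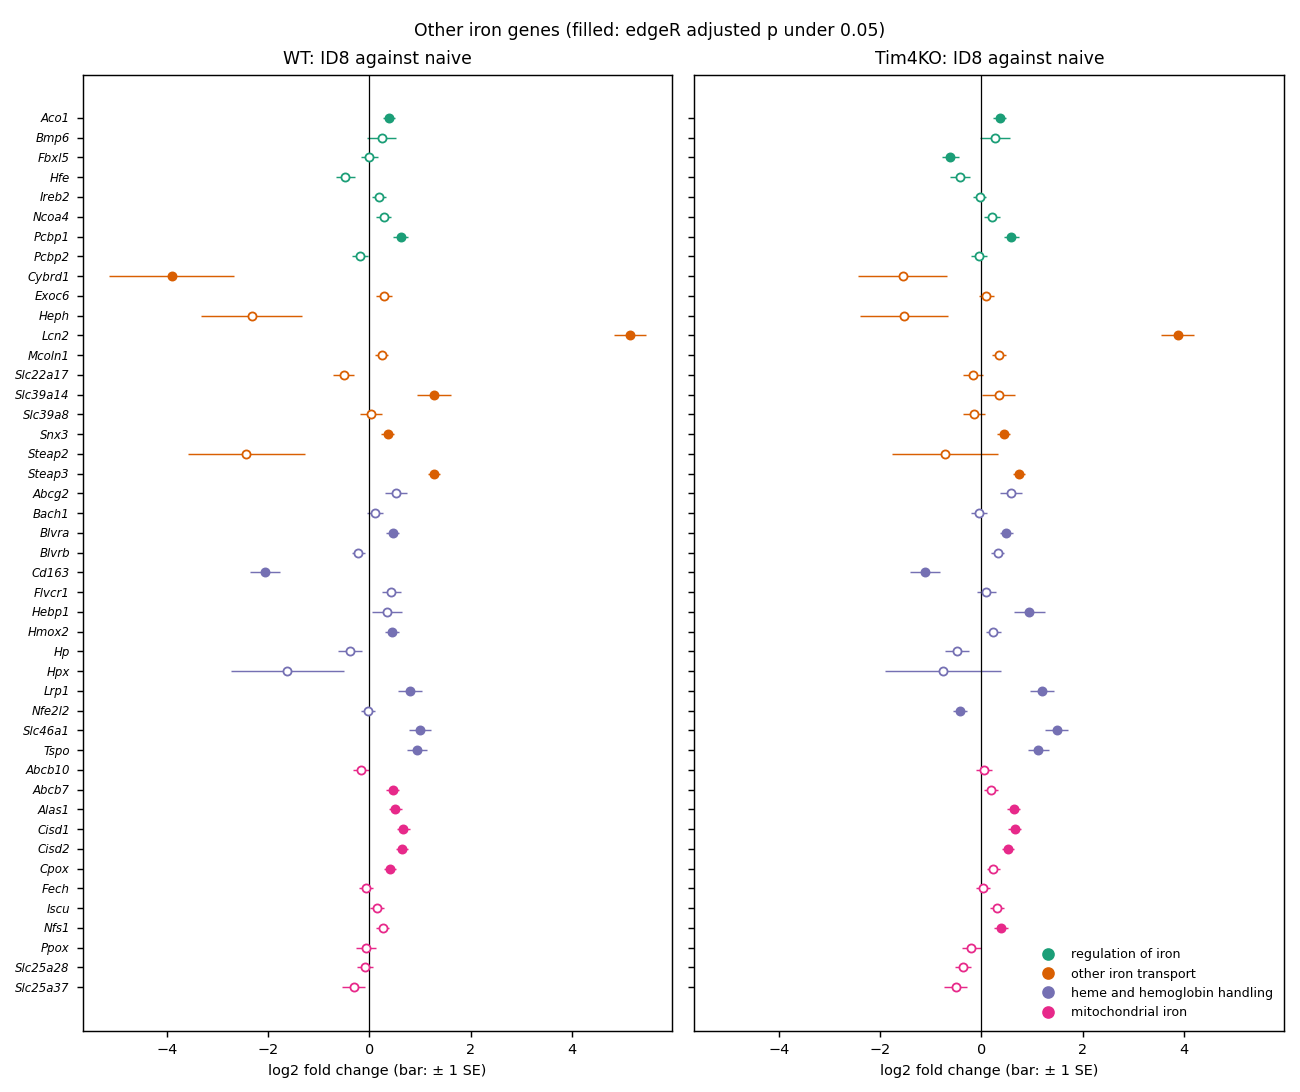
Log2 fold change of ID8 against naive cells for 45 of the 47 tested genes of the 4 further iron lists, in WT (left) and Tim4KO (right), with bars of 1 SE either side and filled points for genes called by edgeR. Lcn2 lies farthest to the right in both, Steap3, Pcbp1 and Tspo are called higher in both, and Cd163 is called lower in both.

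For each iron gene the tested genes with the most similar pattern were found by the root-mean-square difference of log2 CPM, centred on each gene's mean, over 12 libraries and 9569 candidate genes. Trf, whose own root-mean-square deviation was 0.88, was closest to Csf3r (0.19) and Tmem176b (0.20). Tfrc, with a deviation of 1.70, was closest to Mmp14 (0.38) and Acp5 (0.43), the latter an iron-containing phosphatase. Hmox1 (deviation 0.44) was closest to Dynll1 (0.13) and Srsf1 (0.14), and Slc11a2 (0.56) to Nop2 and Aen (0.14 each). Cp (0.55) was closest to Gpr146 and Zxdb (0.19 each) and Slc11a1 (0.23) to Trmt2a and Ascc2 (0.07 each). For genes that hardly varied the likeness says little: Fth1 (0.22) was closest to Frg1 (0.09) and Mcemp1 (0.10), Slc48a1 (0.13) to Bscl2 and Npepl1 (0.07 each), and Ftl1 (0.15) to F8a (0.10) and Itfg1 (0.11). Slc40a1 (0.62) came no nearer than 0.40 to any gene, the nearest being Zbtb37 and Slc25a53.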

How the data were processed

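The authors deposited 1 table of raw counts per Ensembl gene, with 1 column for each of the 12 libraries and 0 columns left unmatched; that the counts are raw was read from the values. Per the labels' protocols, the RNeasy micro kit gave the RNA and the SMART-Seq mRNA LP kit gave the libraries. The submitters' processing notes name FastQC, STAR 2.5 and the builds mm10 and GRCm39. The counter, its annotation, and how it treated strand and reads with several matches are not given in the sources used here. Names, lengths, coordinates and hairpins came from GENCODE vM21 (GRCm38), which named 52029 of 57010 identifiers.

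EdgeR 4.0.16 in R 4.3.3 fitted all 12 libraries in 1 quasi-likelihood model of the group means (TMM factors, filterByExpr, robust dispersions, 8 residual degrees of freedom). Its two-sided F tests gave 6 comparisons, and the threshold for a call was a p under 0.05 after Benjamini-Hochberg adjustment over 15943 genes. Adjusted p-values in the text are edgeR's unless DESeq2 is named. Dividing the absolute log2 change by the root of its F gave the SE. The procedure was tested on simulated data. Levels per length divide CPM by the union of a gene's exons. Floors of 3 counts cover counting error only, since reads carry no molecular identifiers used here.

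All 10 genes are reported. Of the 4 further lists, any called gene could be named, and for each of the 10 the 2 most similar genes whose mean count reached 50. The genes and lists were chosen with earlier results of these data known. Alternatives were other scalings, filters, DESeq2 1.42.0, limma voom (limma 3.58.1), a replicate block, fits to 2 groups, each library left out and another gene length. Marker lists were summed as CPM and not tested. Of the further lists, 2 genes are counted but not reported here by name or value.

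Besides those in the report, the sums per library were 132 to 538 CPM for small peritoneal macrophages or dendritic cells, 3.95 to 27.5 CPM for B cells, 2.84 to 7.80 CPM for T or NK cells, 2.30 to 39.0 CPM for mast cells and 1.60 to 28.6 CPM for epithelial, mesothelial or ID8 tumour cells.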

Additional observations from a re-analysis of the deposited data

How the results depend on the processing

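The challenge responses of Trf, Tfrc, Slc11a2 and Hmox1 called in WT, and of Trf, Tfrc and Cp called in Tim4KO, stayed called in all 12 fits that left out 1 library and in the 8 other settings. Of the alternative values for single iron genes, 36 reversed in sign, 0 of them for a called result. The cause of each change was not tested.

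Upper-quartile scaling reversed the WT response of Fth1 (-0.11) and Slc48a1 (-0.19), the naive genotype difference of Slc48a1 (-0.03), the ID8 genotype difference of Cp (0.05) and the Trf interaction (0.01), and called 1 further iron gene in the averaged genotype difference. It moved the share of calls that were higher from 61.3% to 33.9% in WT and from 69.5% to 48.7% in Tim4KO (DESeq2 size factors gave 55.2% and 60.5%). A mean count of at least 50, which left out Slc40a1, reversed Fth1 (-0.04) and Slc48a1 (-0.12) in WT, Slc48a1 in naive (-0.00) and Cp in ID8 (0.01), and called 1 further iron gene in the average. Only the 2 groups compared gave 11 further iron genes and 3102 genes for the WT response, 2 genes for the naive and 0 further iron genes for the ID8 genotype difference, and reversed Slc48a1 in WT (-0.04) and Cp in ID8 (0.00); this setting has no interaction or average. No filter on low counts called 59 genes in naive, 264 in ID8, 73 in the interaction and 195 in the average, with 1 of the 10 genes in ID8 and 2, 1 and 2 further iron genes in ID8, interaction and average, and reversed Ftl1 in ID8 (-0.01). DESeq2 called 46, 204, 11 and 185 genes, 1 of the 10 genes (Fth1) in ID8 and in the average, and 2 further iron genes in each. Limma voom called 4 genes in naive and gave Slc40a1 there as 0.00.

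Same-numbered libraries of different groups correlated at -0.543 to 0.44 (18 pairs, 4 over 0.1), and 0 libraries had their own number as the best match in every other group. Since most pairs were not over 0.1, the numbers were not taken to pair them. A replicate block gave 3 genes in naive, 14 in ID8 and 10 in the average. Of the 10 genes it called 6 in WT, beside 4619 of 15943 genes, and 3 in Tim4KO, beside 2562 of 15943. In Tim4KO the call of Slc11a1 was lost (0.36, edgeR adjusted p = 0.0582). In the other comparisons the block called 0 of the 10.

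With 1 library left out, the calls ran from 5 to 6 of the 10 genes, 14 to 25 further iron genes and 3362 to 7230 genes for the WT response, and from 3 to 5, 10 to 20 and 1222 to 3595 for the Tim4KO response. For naive genotype they ran from 0 to 0, 0 to 0 and 1 to 29, for ID8 genotype from 0 to 4, 0 to 5 and 1 to 997, for the interaction from 0 to 3, 0 to 1 and 0 to 368, and for the average from 0 to 0, 0 to 2 and 8 to 396. The lowest WT count came without WT naive 3, the lowest Tim4KO count without Tim4KO naive 2, and the highest counts of the naive, ID8, interaction and average tests without WT ID8 3. The small counts of all genes moved by over 1.5 times without 8 (naive), 9 (ID8) and 9 (average) of the 12 libraries. Among reversed values, the log2 range was -0.00 to 0.17 for Slc48a1 in WT, -0.86 to 0.20 for Slc40a1 in Tim4KO, -0.58 to 0.16 for Slc40a1 and -0.03 to 0.11 for Slc48a1 in naive, and -0.59 to 0.12 for Tfrc, -0.05 to 0.15 for Slc11a1, -0.27 to 0.62 for Slc40a1, -0.02 to 0.09 for Ftl1 and -0.16 to 0.09 for Cp in ID8. It was -0.19 to 0.88 for Slc40a1 in the interaction, and -0.02 to 0.33 for Tfrc, -0.04 to 0.26 for Slc11a2, -0.17 to 0.28 for Slc40a1 and -0.12 to 0.02 for Hmox1 in the average.

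With the longest transcript as length, WT naive levels were 3207 (Trf), 1.49 (Tfrc), 116 (Slc11a1), 2.30 (Slc11a2), 0.323 (Slc40a1), 933 (Fth1), 1037 (Ftl1), 19.4 (Cp) and 37.1 (Slc48a1) CPM per kilobase, and the ferritin ratios 0.899, 1.01, 1.07 and 0.729. Slc40a1 rests on 5 to 32 counts a library.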
